A study of Arabidopsis thaliana with 6 samples.

Results

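The 10 genes described here encode ethylene response factors (ERFs) of Arabidopsis thaliana: ERF1, ORA59, ERF1A, ERF2, ERF5, ERF6, ERF104, ERF105, ERF4 and ERF11. They were taken by gene identifier from an expression table of 33532 genes, in which 10 of the 10 identifiers were found, and the list was drawn up with earlier results of these data known. RNA sequencing compared wild-type Col-0 seedlings, the common laboratory accession, that had grown for 10 days on 1/2 MS plates with 5 µg/mL doxycycline (3 libraries) with seedlings of the same age and genotype grown without it (3 control libraries). Doxycycline is a tetracycline, a class of antibiotics that stop translation on ribosomes of the bacterial kind, and mitochondria and plastids carry such ribosomes. The series title names the response to impaired mitochondrial translation. The RNA came from whole seedlings, so fewer cells of a type and less RNA per cell cannot be told apart. The design calls the libraries biological replicates without saying whether plates or harvests were separate, so p-values measure the spread between these libraries.

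Ethylene is a gaseous plant hormone. Its receptors repress the pathway until the hormone binds, after which the transcription factors EIN3 and EIL1 accumulate and switch on genes such as ERF1. ERF proteins carry a single AP2 DNA-binding domain, and many of them bind the GCC box, a short promoter element of defence genes such as the plant defensin genes PDF1.2. ERF1, ORA59, ERF1A, ERF2, ERF5, ERF6, ERF104 and ERF105 belong to group IX, which is made up mainly of activators, whereas ERF4 and ERF11 belong to group VIII and repress transcription through an EAR motif.

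Values are FPKM, fragment counts scaled both to transcript length and to library size, so levels of different genes may be compared. In the doxycycline libraries 6 of the 10 ERF transcripts lay below every control library, and 0 lay above every one. The 6 were ERF1, ORA59, ERF1A, ERF2, ERF4 and ERF11. Of all 19035 genes tested, 25.7% lay below every control and 9.59% above. The median difference of the 10 genes between doxycycline and control was -1.10 on the log2(FPKM + 1) scale, against -0.29 for all genes tested. With limma, none of the 10 passed a Benjamini-Hochberg adjusted p of 0.05 over all genes, nor did any other gene (0%). At an unadjusted p under 0.05 there were 7 of the 10, each lower with doxycycline, where 18.8% of all genes were lower and 6.83% higher at that level.

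The control libraries differed from each other far more than the doxycycline libraries did, which bears on each value below. The median SD of the ERF genes on the log2(FPKM + 1) scale was 0.135 between doxycycline libraries and 0.860 between controls, against 0.131 and 0.459 for all genes tested. Across genes, control 1 correlated with the doxycycline libraries at 0.961 to 0.964 and with controls 2 and 3 at 0.831 and 0.867. Root and shoot markers were both present, as the seedling label implies. The summed FPKM of 8 root markers was 26.7 to 36.8 with doxycycline and 26.0 to 132 in controls, with the nitrate transporter gene NRT2.1 listed at 0 in 3 libraries. The sum of 7 shoot markers was 34025 to 38850 with doxycycline and 11957 to 39720 in controls. In both sums control 1 stood near the doxycycline libraries and control 2 farthest from them. The part of organ makeup in the ERF values was not tested. From the steps between low values the depth was put at about 18600000 to 21900000 fragments per library.

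**Figure D1:**
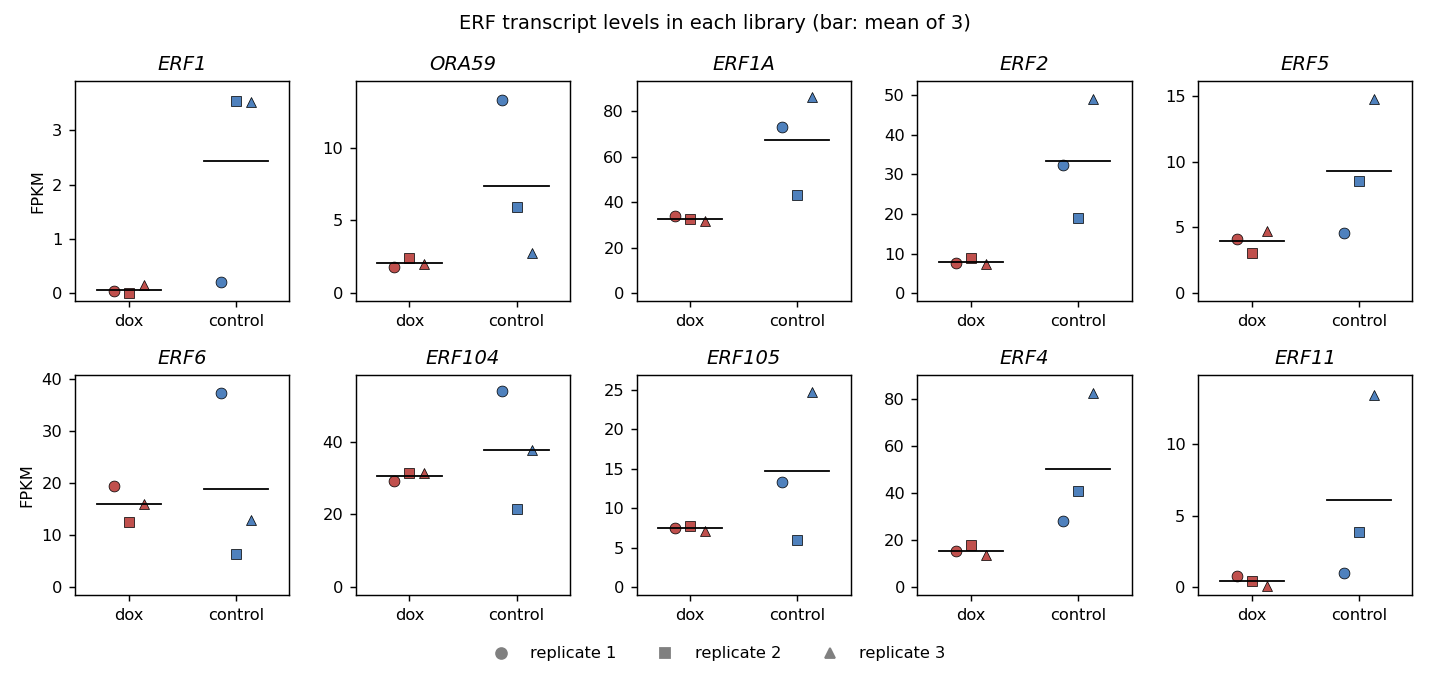
FPKM of the 10 ERF genes in each library (vertical axis, FPKM, linear, a separate scale for each gene), doxycycline (dox) on the left and control on the right. Symbols give the replicate number and bars the mean of 3 libraries. For ERF1A the doxycycline libraries lie between 31.6 and 33.8 FPKM and the controls between 43.3 and 86.0 FPKM.

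ERF1 and ORA59 join ethylene and jasmonate signals, and both are known to activate PDF1.2. ERF1 (AT3G23240, chromosome 3) was listed at 0.05, 0 and 0.148 FPKM in doxycycline libraries 1 to 3, against 0.214, 3.55 and 3.53 FPKM in controls 1 to 3. At the estimated depth these values stand for about 1.0, 0 and 3.0 fragments with doxycycline and 4.1, 65.1 and 76.4 fragments in the controls. ERF1 was thus at or under the floor of 3 fragments in all doxycycline libraries, and control 1 lay just above it. Its log2 difference was -1.46 (SE 0.546, limma adjusted p = 0.170). The difference was -0.19 with control 1 as the only control and -2.09 without control 1. With such low values it also depends on the pseudocount, and it was -4.95 with 0.01 in place of 1.

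ORA59 (AT1G06160, chromosome 1) stood at 1.81, 2.40 and 2.04 FPKM with doxycycline, against 13.3, 5.95 and 2.77 FPKM in controls 1 to 3. Its order among the controls was the opposite of that of ERF4, ERF5 and ERF11, with the highest level in control 1 and the lowest in control 3, and the groups were separated only by the gap between 2.40 and 2.77 FPKM. The log2 difference was -1.23 (SE 0.469, limma adjusted p = 0.173). Against single controls it was -2.22, -1.18 and -0.30 for controls 1 to 3.

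ERF1A and ERF2 are activators of GCC-box genes, and overexpression of ERF2 is known to raise jasmonate-responsive defence transcripts. ERF2 (AT5G47220, chromosome 5) stood at 7.59, 8.95 and 7.44 FPKM with doxycycline, against 32.3, 18.9 and 48.9 FPKM in controls. Its doxycycline mean was 0.239 of the control mean, and the closest libraries of the groups differed by 1.00 on the log2 scale. Of all genes, 0.457% lay below every control by 1 or more on that scale, a cutoff that ERF2 only just reached. It fell short of that cutoff once the libraries were rescaled. The gap, doxycycline minus control, was -0.377 after median-of-ratios scaling and -0.436 after quantile normalization. It had a log2 difference of -1.84 (SE 0.334, limma adjusted p = 0.121). No gene tested had a lower adjusted p, but the value was shared. WRKY33, MPK3, VSP2 and PDF1.2b, given below, had the same adjusted p and a lower unadjusted p.

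ERF1A (AT4G17500, chromosome 4) stood at 33.8, 32.7 and 31.6 FPKM with doxycycline, against 72.9, 43.3 and 86.0 FPKM in controls. The doxycycline libraries spanned a range of 1.07-fold, whereas the controls spanned 1.99-fold and lay above them throughout. The log2 difference was -0.97 (SE 0.266, limma adjusted p = 0.136). After median-of-ratios scaling its groups overlapped.

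ERF1A and ERF2 followed the mean standardized profile of the ERF genes more closely than the other 8, each with a Pearson r of 0.99 over the 6 libraries, a description in which both genes are also part of that mean. Their promoters are shown because they hold the longest stretch of sequence common, in the same orientation, to any of the 45 pairs of ERF promoters. Capitals mark that run of 26 bases, which contains a G box (CACGTG). It begins 88 bases before the annotated start of ERF1A and 41 bases before that of ERF2. The next longest run common to a pair in the same orientation was 12 bases. Of 27443 promoters of protein-coding genes, 2 held the run of 26 bases on either strand, those of ERF1A and ERF2. The 250 bases before each start are from RefSeq, assembly TAIR10.1, chr4:9758953-9759202 on the plus strand for ERF1A and chr5:19172957-19173206 on the minus strand for ERF2.
ERF1A: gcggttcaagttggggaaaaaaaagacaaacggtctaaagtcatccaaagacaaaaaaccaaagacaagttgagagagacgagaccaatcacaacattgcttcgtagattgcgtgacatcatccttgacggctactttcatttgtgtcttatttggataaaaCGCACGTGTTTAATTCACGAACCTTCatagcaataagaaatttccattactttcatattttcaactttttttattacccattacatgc
ERF2: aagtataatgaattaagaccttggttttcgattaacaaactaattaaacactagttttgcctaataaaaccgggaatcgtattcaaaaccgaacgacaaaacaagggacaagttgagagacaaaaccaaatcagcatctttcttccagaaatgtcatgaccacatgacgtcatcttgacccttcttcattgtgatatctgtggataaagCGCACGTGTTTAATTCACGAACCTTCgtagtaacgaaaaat

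ERF5 and ERF6 act in defence against chitin-bearing fungi and restrain leaf growth under osmotic stress. ERF5 (AT5G47230, chromosome 5) stood at 4.15, 3.04 and 4.74 FPKM with doxycycline, against 4.57, 8.54 and 14.8 FPKM in controls. The groups overlapped, since doxycycline library 3 lay above control 1. For ERF5 the log2 difference was -0.94 (SE 0.393, limma adjusted p = 0.192).

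ERF6 (AT4G17490, chromosome 4) stood at 19.5, 12.5 and 15.9 FPKM with doxycycline, against 37.4, 6.37 and 12.95 FPKM in controls. All doxycycline libraries lay below control 1 and above control 2, so the direction differed between controls. The log2 difference was 0.08 (SE 0.561, limma adjusted p = 0.932). It was -1.20, 1.18 and 0.26 against controls 1 to 3.

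ERF104 is known as a substrate of the kinase MPK6 in the response to bacterial flagellin, and its relative ERF105 has been linked to freezing tolerance. ERF104 (AT5G61600, chromosome 5) stood at 29.1, 31.4 and 31.4 FPKM with doxycycline, against 54.0, 21.5 and 37.8 FPKM in controls, with control 2 below and controls 1 and 3 above all doxycycline libraries. Its log2 difference was -0.20 (SE 0.320, limma adjusted p = 0.680), and it became 0.12 after median-of-ratios scaling. ERF105 (AT5G51190, chromosome 5) stood at 7.43, 7.76 and 7.12 FPKM with doxycycline, against 13.3, 5.94 and 24.7 FPKM in controls, a log2 difference of -0.70 (SE 0.445, limma adjusted p = 0.327). Here too control 2 lay below all doxycycline libraries.

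The single transcript model of ERF105 lies entirely within annotated sequence of AT5G51180, a gene on the other strand. Without knowledge of strand handling, reads of the pair cannot be told apart. AT5G51180, for an alpha/beta-hydrolase family protein, stood at 27.4, 26.6 and 31.1 FPKM with doxycycline, against 23.0, 12.6 and 10.9 FPKM in controls, above every control. Its part in the values of ERF105 was not tested. None of the other 9 ERF genes overlapped an annotated gene, and exact matches of their transcripts to another locus reached 31 bases at most.

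ERF4 and ERF11 are the repressors of the set. ERF4 (AT3G15210, chromosome 3) stood at 15.2, 18.0 and 13.5 FPKM with doxycycline, against 28.1, 40.7 and 82.7 FPKM in controls. Its doxycycline mean was 0.308 of the control mean, and the lowest control was well clear of the highest doxycycline library. The log2 difference was -1.50 (SE 0.378, limma adjusted p = 0.131).

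ERF11 (AT1G28370, chromosome 1) stood at 0.741, 0.44 and 0.049 FPKM with doxycycline, against 1.00, 3.83 and 13.5 FPKM in controls. This is about 18.1, 10.9 and 1.2 fragments against 22.9, 84.6 and 351 fragments, so the gap between doxycycline library 1 and control 1 rests on few reads. The log2 difference was -1.91 (SE 0.683, limma adjusted p = 0.161), and it was -3.79 with a pseudocount of 0.01.

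The promoters of ERF11 and ORA59 are shown because they were the 2 of the 10 that held a GCC box, the site that ERF proteins themselves bind. Capitals mark GCCGCC, which begins 28 bases before the annotated start of ERF11 and 230 bases before that of ORA59. The windows are from the same source, chr1:9956981-9957230 on the minus strand for ERF11 and chr1:1882657-1882906 on the plus strand for ORA59.
ERF11: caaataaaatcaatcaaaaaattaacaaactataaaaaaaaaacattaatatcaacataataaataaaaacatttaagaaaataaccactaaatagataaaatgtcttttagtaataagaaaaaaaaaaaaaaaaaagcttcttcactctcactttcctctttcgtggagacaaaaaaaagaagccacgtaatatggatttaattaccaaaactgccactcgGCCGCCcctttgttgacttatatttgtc
ORA59: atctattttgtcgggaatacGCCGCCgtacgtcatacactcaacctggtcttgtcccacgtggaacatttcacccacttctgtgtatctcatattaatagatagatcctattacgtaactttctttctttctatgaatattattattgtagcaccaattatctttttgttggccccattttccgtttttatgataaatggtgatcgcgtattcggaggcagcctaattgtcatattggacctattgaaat

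Motifs were searched on both strands from 250 bases before to 50 bases after the annotated start. GCCGCC was found in 2 of the 10 ERF windows and in 2.57% of 27443 windows of protein-coding genes. The G box CACGTG was found in 4 (ERF1A, ERF2, ERF4 and ORA59), against 7.68%. TTGAC, the core of the W box of WRKY factors, was found in 7, against 50.5%, and was absent from ERF6, ERF104 and ORA59. ACCGAC, the core of the drought-responsive element, was found in ERF5, against 5.7%. The 4 genes with a G box were among the 6 that lay below every control, but so were ERF1 and ERF11, which held no G box. After median-of-ratios scaling the groups of ERF1A and ORA59 overlapped. ERF6 and ERF104, which held none of the 4 motifs in this window, overlapped the controls as deposited. So did ERF5 and ERF105, which held a W box core. A match of letters shows neither a site in use nor a cause.

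Set against each control in turn, the 10 genes gave different pictures. Every doxycycline library lay below control 1 in 9 of the 10 genes (36.9% of all genes), below control 2 in 7 (68.9%) and below control 3 in 9 (59.3%). The exception for control 1 was ERF5, and for control 3 it was ERF6. ERF6, ERF104 and ERF105 lay above control 2 in every doxycycline library. The median differences of the 10 genes from controls 1 to 3 were -0.81, -1.05 and -1.64, where those of all genes were -0.00, -0.54 and -0.30. Among controls, 6 ERF genes were highest in control 3 (ERF1A, ERF2, ERF4, ERF5, ERF11 and ERF105), 3 in control 1 (ERF6, ERF104 and ORA59) and 1 in control 2 (ERF1).

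**Figure D2:**
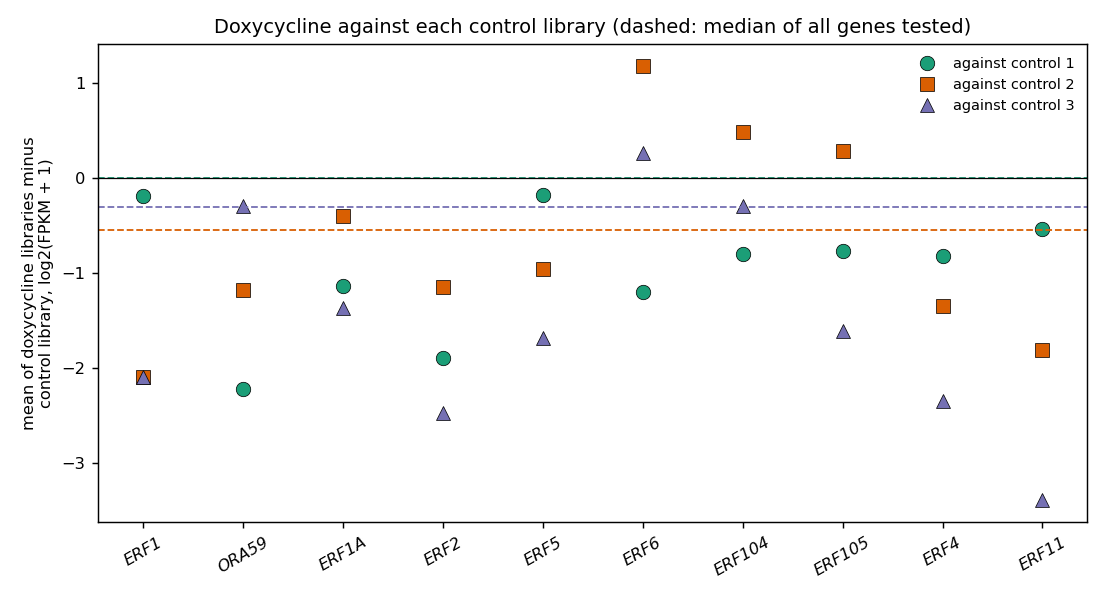
Mean of the 3 doxycycline libraries minus each control library on the log2(FPKM + 1) scale (vertical axis) for each ERF gene, with symbols for the control. Dashed lines are the medians of all genes tested against the same control. The 3 values of ERF2 are all below -1, whereas those of ERF6 run from -1.20 to 1.18.

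Which of the 10 lay below every control also depended on the scale of the libraries. The median difference of all genes was -0.29 as deposited and 0.01 after median-of-ratios scaling or quantile normalization. After median-of-ratios scaling 5 of the 10 lay below every control and 0 above, where 17.1% of all genes lay below and 18.2% above. After quantile normalization the counts were 5 and 0, where 16.7% of all genes lay below and 17.2% above. ERF1, ERF2, ERF4 and ERF11 lay below every control under both, and ORA59 overlapped under both. ERF1A overlapped after median-of-ratios scaling. ERF5 then lay below every control, but with a gap of only -0.00577 on the log2 scale.

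The calls also depended on which controls were used. Without control 1, 7 of the 10 lay below both other controls and 0 above, where 53% of all genes lay below and 15.9% above. In the same comparison limma called 6 of the 10, all lower: ERF1 (adjusted p = 0.00202), ERF4 (0.00596), ERF11 (0.00884), ERF2 (0.0113), ERF5 (0.0124) and ERF1A (0.0441). Of all genes, 35.6% were then called lower and 9.77% higher. With control 1 as the only control, whose spread is then assumed to be that of the doxycycline libraries, limma called 7 of the 10, again all lower. They were ORA59 (adjusted p = 0.00764), ERF2 (0.00819), ERF1A (0.0123), ERF104 (0.0216), ERF105 (0.0310), ERF6 (0.0345) and ERF4 (0.0407), where 4.75% of all genes were called lower and 6.78% higher. ERF1A, ERF2 and ERF4 were called in both, but the share of all genes called in both was not computed. Without control 3, 0 of the 10 were called, as were 0.0105% of all genes lower and 0% higher. These comparisons share the doxycycline libraries and are not independent of each other.

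Levels had a clearer order with doxycycline than in the controls. With doxycycline ERF1A came first at 32.7 ± 1.11 FPKM (SD, n = 3) and ERF104 second at 30.6 ± 1.33 FPKM. Their libraries did not overlap, but the closest stood at 31.6 and 31.4 FPKM. ERF6 at 16.0 ± 3.51 FPKM and ERF4 at 15.6 ± 2.27 FPKM overlapped each other, as did ERF2 at 7.99 ± 0.831 FPKM and ERF105 at 7.44 ± 0.324 FPKM. ERF5, ORA59, ERF11 and ERF1 followed, of which the last pair overlapped. In controls ERF1A again came first at 67.4 ± 21.9 FPKM, followed by ERF4 at 50.5 ± 28.6, ERF104 at 37.8 ± 16.2 and ERF2 at 33.4 ± 15.0 FPKM (SD, n = 3), and every gene overlapped its neighbour in that order. The summed FPKM of the 10 genes was 119, 117 and 114 with doxycycline and 257, 159 and 328 in controls 1 to 3. ERF1A made up 27.7% to 28.3% of that sum with doxycycline and 26.3% to 28.4% in controls. ERF104 made up 24.4% to 27.6% with doxycycline and 11.5% to 21.0% in controls. ERF2 made up 6.36% to 7.64% with doxycycline and 11.9% to 14.9% in controls. The share of ERF4 overlapped between the groups, at 11.8% to 15.3% with doxycycline and 10.9% to 25.7% in controls. So did that of ERF6, at 10.7% to 16.3% with doxycycline and 3.95% to 14.6% in controls.

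Several of these genes sit beside another ERF gene. ERF1A and ERF6 are adjacent protein-coding genes on chromosome 4, and with doxycycline ERF1A lay below every control while ERF6 overlapped them. ERF2 and ERF5 lie 2 protein-coding genes apart on chromosome 5. Both were highest in control 3, a trait of 6 of the 10 genes. With doxycycline ERF2 lay below every control while ERF5 overlapped them. ERF11 adjoins ERF12 (AT1G28360), another gene of group VIII, which stood at 0.645, 0.479 and 1.01 FPKM with doxycycline and 0.575, 7.93 and 2.63 FPKM in controls, overlapping. ERF104 adjoins ERF107 (AT5G61590), at 292, 237 and 288 FPKM with doxycycline and 394, 51.5 and 54.7 FPKM in controls. ERF107 lay above controls 2 and 3 and below control 1 in every doxycycline library, whereas ERF104 lay above control 2 alone. ERF98, next to ERF1 on chromosome 3, stayed at or under 1.52 FPKM in all libraries and was not tested.

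**Figure D3:**
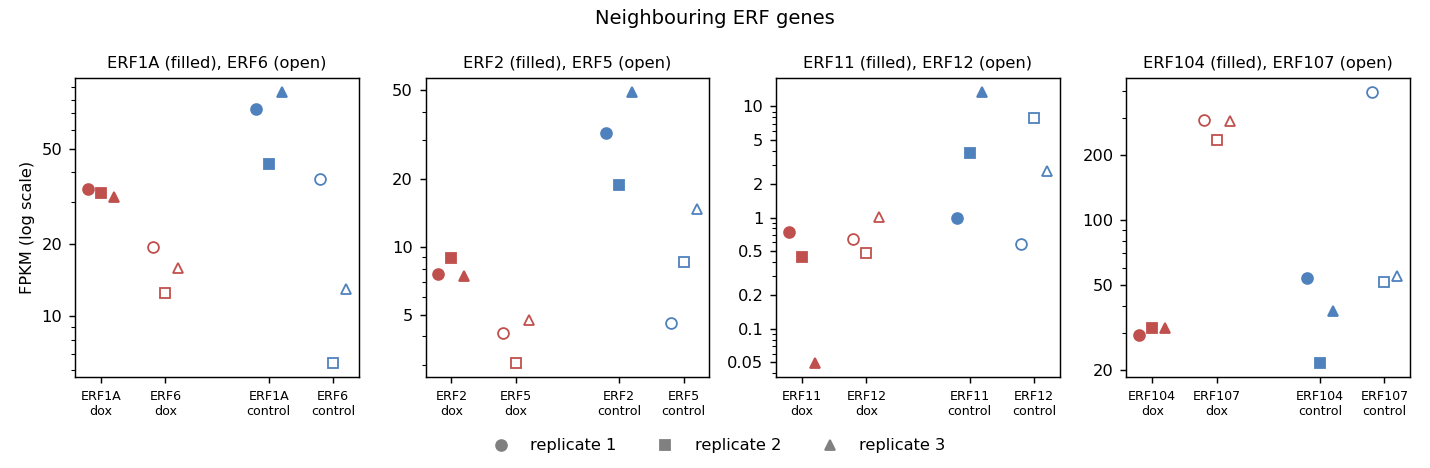
FPKM on a log axis in each library for 4 pairs of neighbouring ERF genes, doxycycline (dox) on the left and control on the right of each panel. Filled symbols are the first gene of the pair and open symbols the second. ERF107 is at 394 FPKM in control 1 and at 51.5 and 54.7 FPKM in controls 2 and 3.

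Of 14 other ERF genes of groups VIII and IX, 10 reached the mean of 1 FPKM required for testing, and 1 of them lay below and 1 above every control (25.7% and 9.59% of all genes). The first was ERF10 (AT1G03800), at 0.455, 1.16 and 0.9 FPKM with doxycycline and 2.99, 2.09 and 2.94 FPKM in controls (log2 difference -1.01, SE 0.283, limma adjusted p = 0.137). The other was ERF106 (AT5G07580), at 55.3 ± 1.14 against 41.1 ± 9.59 FPKM (SD, n = 3 each; limma adjusted p = 0.216). The median difference of these 10 was -0.67, against -0.29 for all genes. Without control 1, 7 lay below and 2 above both other controls (53% and 15.9% of all genes), and limma called 7 lower and 2 higher (35.6% and 9.77% of all genes). The number below was 3 without doxycycline library 2, for which the share of all genes was not computed. It was 0 after quantile normalization, where 16.7% of all genes lay below.

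Of the rest of the ethylene pathway, 41 genes were listed by role and 36 tested, of which 15 lay below every control, 2 above (25.7% and 9.59% of all genes), and 0 passed over all genes. Among synthesis genes 2 of 9 lay below and 2 above, with a median difference of -0.14 against -0.29 for all genes. The number below was 5 without control 1, where 53% of all genes lay below, and 1 after median-of-ratios scaling, where 17.1% did. ACS11 (AT4G08040), for an ACC synthase of the first committed step, stood at 14.3, 10.7 and 8.54 FPKM with doxycycline and 5.87, 0.5 and 1.77 FPKM in controls (log2 difference 1.97, SE 0.538, limma adjusted p = 0.135). ACO3 (AT1G12010), for an ACC oxidase of the last step, stood at 2.27, 2.096 and 2.79 FPKM against 4.45, 10.6 and 8.75 FPKM in controls (log2 difference -1.34, SE 0.324, limma adjusted p = 0.129). ACS6 (AT4G11280), for an ACC synthase stabilised by MPK6, stood at 10.7 ± 0.530 against 16.8 ± 6.95 FPKM (SD, n = 3 each).

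Among 16 tested genes of receptors and signalling, 8 lay below every control and 0 above (25.7% and 9.59% of all genes), with a median difference of -0.58 against -0.29 for all genes. EBF1 and EBF2 encode the F-box proteins that mark EIN3 for breakdown, and both genes are themselves induced by ethylene. EBF2 (AT5G25350) stood at 14.5, 16.4 and 18.4 FPKM with doxycycline and 38.1, 52.3 and 31.0 FPKM in controls (log2 difference -1.22, SE 0.232, limma adjusted p = 0.121). EBF1 (AT2G25490) stood at 16.0, 16.7 and 18.8 FPKM against 28.4, 86.5 and 67.4 FPKM in controls (log2 difference -1.63, SE 0.391, limma adjusted p = 0.129). The receptor gene ERS1 (AT2G40940) stood at 14.8 ± 2.75 against 29.7 ± 11.8 FPKM (SD, n = 3 each), also with no overlap. In this list 4 genes, not 8, lay below every control after either scaling, where 17.1% of all genes did after median-of-ratios scaling and 16.7% after quantile normalization.

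Of 11 ethylene-responsive targets 5 lay below every control and 0 above (25.7% and 9.59% of all genes), with a median difference of -0.89 against -0.29 for all genes. Those 5 are known as defence genes: PDF1.2A, PDF1.2b, PDF1.2c, PR3 and PR4. PR4 (AT3G04720), for a hevein-like protein, stood at 44.6, 43.2 and 42.3 FPKM with doxycycline and 103, 331 and 296 FPKM in controls (log2 difference -2.29, SE 0.431, limma adjusted p = 0.121). PR3 (AT3G12500), for a basic chitinase, stood at 4.47, 3.25 and 2.82 FPKM against 9.53, 59.2 and 70.8 FPKM in controls. PDF1.2b (AT2G26020) was listed at 0 in all doxycycline libraries, against 28.1, 19.8 and 3.30 FPKM in controls 1 to 3, the same order among controls as ORA59. The PDF1.2 genes are near-identical copies, and the split of reads between them is uncertain. The 6 other targets overlapped between the groups. Without control 1, 4 targets lay above both other controls, where 15.9% of all genes did.

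**Figure D4:**
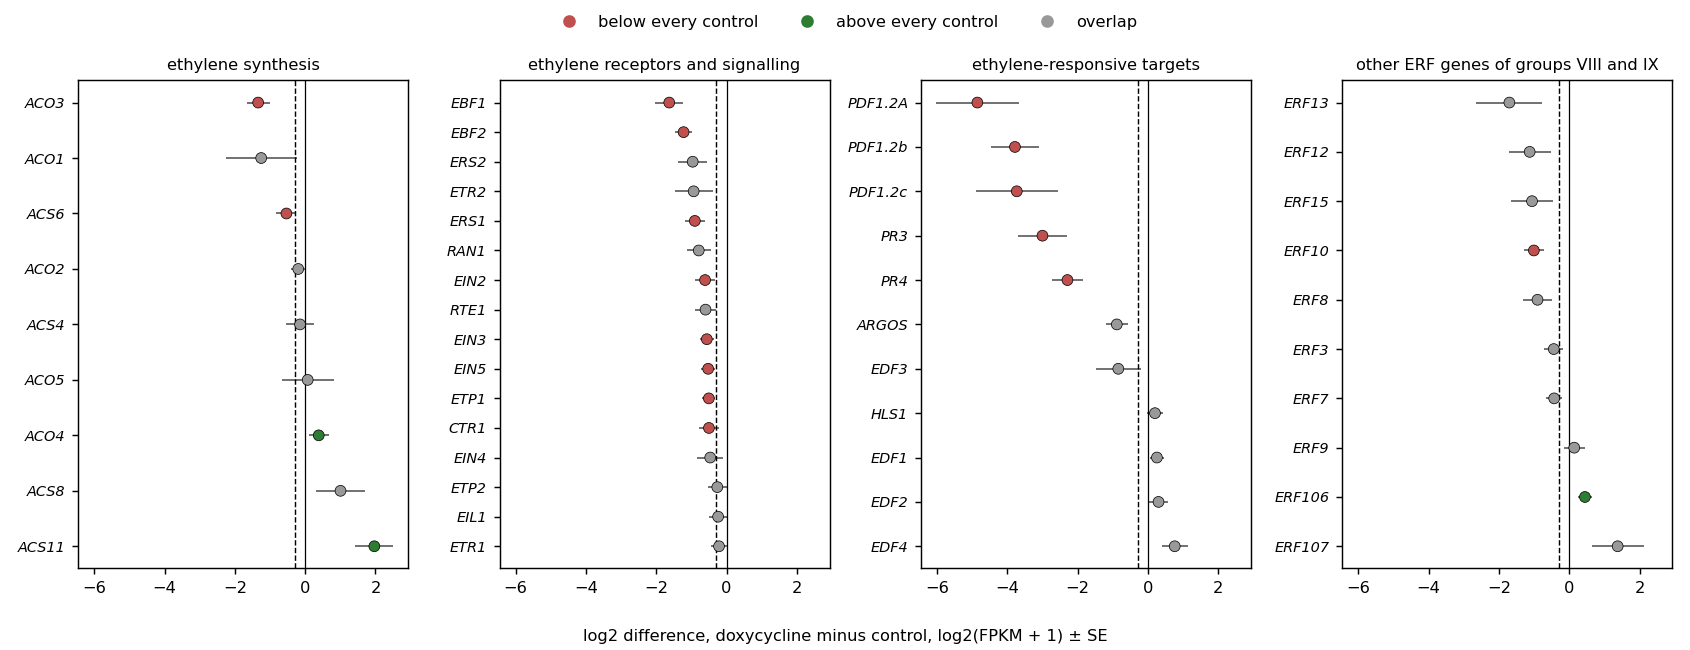
Log2 difference between doxycycline and control with its SE (horizontal axis, log2(FPKM + 1) scale) for tested genes of 3 ethylene lists and for the other ERF genes, coloured by whether the doxycycline libraries lie below every control, above every control or overlap them. The dashed line is the median of all genes tested, -0.29. PDF1.2A, PDF1.2b, PDF1.2c, PR3 and PR4 lie farthest to the left.

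Jasmonate genes are given because ERF1, ORA59, ERF2 and ERF4 act where jasmonate and ethylene meet. All 9 listed lay below every control, where 25.7% of all genes did. The number was 8 after median-of-ratios scaling and 7 after quantile normalization, where 17.1% and 16.7% of all genes lay below. The summed FPKM of the 9 was 117 to 137 with doxycycline and 360, 732 and 3460 in controls 1 to 3. Control 3, in which 6 ERF genes were highest, thus also had the largest jasmonate sum, and control 1 had the smallest. The lowest control was control 2 for 5 ERF genes, control 1 for 4 and control 3 for 1. Single jasmonate genes did not all follow the order of the sum either, and some were lowest in control 2. VSP2 (AT5G24770), for a vegetative storage protein, stood at 13.6, 11.7 and 8.65 FPKM with doxycycline, against 83.2, 293 and 863 FPKM in controls, and VSP1 (AT5G24780) and the repressor gene JAZ1 (AT1G19180) had the same order among controls. Their log2 differences were -4.51, -4.04 and -3.62 (SE 0.757, 0.935 and 0.898), with limma adjusted p of 0.121, 0.128 and 0.131. The part of jasmonate in the ERF values was not tested.

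The genes most like the ERF set were sought among 7480 genes that averaged 5 FPKM or more over the libraries and had a range of at least 1 on the log2 scale, by Pearson r with the mean ERF profile over the 6 libraries. The 8 highest had r of 0.986 to 0.997. They were AT5G43190 (a kelch-repeat protein), CKL13 (a casein kinase), WRKY11 (a WRKY factor), PYL7 (an abscisic acid receptor), AT4G28240 (annotated as wound-responsive), AT1G20225 (a thioredoxin-family protein), IBH1 (a growth-restraining bHLH protein) and YLMG1-2. All 8 lay below every control and were highest in control 3 and lowest among controls in control 2. ERF1A, ERF2 and ERF105 had the same order among controls. The mean ERF profile itself has that order and lies below every control with doxycycline. Picking by r thus selects for both traits, and they are no separate result. AT5G43190, the closest, stood at 9.49, 9.33 and 9.80 FPKM with doxycycline and 22.2, 15.6 and 33.1 FPKM in controls. The libraries shared by these profiles include both treatments, so r holds the treatment difference and the spread of the controls together. The 10 ERF genes themselves had r from 0.17 for ERF6 to 0.99 for ERF1A and ERF2 with that profile.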

How the data were processed

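The authors deposited 1 table of FPKM values with a column per library. TopHat2 2.1.0, Cufflinks 2.2.1 and TAIR10 are named in the submitters' processing notes, without role or order, and strand handling and read filters are given neither there nor in the labels. The header names no unit, and FPKM was read from the values. RNA was taken with TRIzol and libraries were made with a VAHTS Universal V6 kit, per the labels' protocols. At the depths above, 50.9% to 62.9% of low values came out as whole fragments (tolerance 0.08 reads; 16% by chance), so no count model was run and depths are rough.

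Values were analysed as log2(FPKM + 1), which understates changes of low genes, for the 19035 genes averaging 1 FPKM or more, all 10 ERF genes among them. Limma 3.58.1 in R 4.3.3 (moderated variances with a trend, two-sided, no covariate) was fitted over the whole table with Benjamini-Hochberg adjustment. It was tested first on simulated data, in which both groups had a spread set from the doxycycline libraries. The wider spread of the real controls was not simulated, so that test does not cover it. SDs and SEs are over 3 libraries a group. Exact permutation of 3 against 3 cannot give a two-sided p under 0.1 and was not used.

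Members and lists were chosen with earlier results of these data known. Named genes were the 10, up to 3 per list with the lowest p among genes without overlap, listed ERF neighbours and the 8 most alike. NRT2.1, PDF1.2A, PDF1.2c, MPK6 and AT5G51180 were named in addition after their values were seen. Promoters, overlaps and symbols came from RefSeq for TAIR10.1, a revision of TAIR10, in which 32789 of the 33532 identifiers were found. A planned comparison of protein sequences was not done. Alternatives were pseudocounts, filters, scalings, robust variances, library weights, a replicate block, each library left out and control 1 as the only control.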

Additional observations from a re-analysis of the deposited data

How the results depend on the processing

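No gene passed the threshold under either other pseudocount, either other filter, either scaling, robust variances or the replicate block, while library weights, whose estimate had not fully converged, gave 3 genes, control 1 as the only control gave 2194, and leaving out 1 library gave 0 to 8637. With pseudocounts of 0.1 and 0.01 and with no filter, 4996, 5012 and 5432 genes had an unadjusted p under 0.05, against 4876. ERF genes called lower were 7 with control 1 as the only control and 0 to 6 with 1 library left out. ERF genes called higher were 0 under every alternative. ERF genes below every control numbered 5 after either scaling, where 17.1% (median-of-ratios) and 16.7% (quantile) of all genes lay below. Under median-of-ratios scaling the 5 included ERF5, with a gap of only -0.00577 on the log2 scale. With 1 library left out the ERF genes below every control numbered 6 to 8. Without control 1 there were 7, where 53% of all genes lay below. The 8 was without control 2, for which the share of all genes was not computed, so it has no background beside it. ERF1, ERF11 and ORA59 were not tested at a mean of at least 5 FPKM.

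ERF6 turned to -1.20 with control 1 as the only control, and ran from -0.47 to 0.72 with 1 library left out. ERF104 turned to 0.12 after median-of-ratios scaling and 0.0092 after quantile normalization, and ran from -0.55 to 0.10 with 1 library left out. The other 8 ERF genes stayed negative under every alternative run for them, but with control 1 as the only control ERF1, ERF5 and ERF11 stood at -0.19, -0.18 and -0.54, against -1.46, -0.94 and -1.91. Without control 3 the differences of ERF11, ERF5 and ERF105 were -1.17, -0.57 and -0.24, without control 2 that of ERF105 was -1.18, and without control 1 that of ORA59 was -0.74. After median-of-ratios scaling, which moves the median of all genes from -0.29 to 0.01, ERF2 stood at -1.53 and ERF1A at -0.64. Of the 36 tested ethylene genes of 3 lists, 10 lay below every control after median-of-ratios scaling and 11 after quantile normalization, against 15 as deposited. The shares of all genes were 17.1%, 16.7% and 25.7%. With 1 library left out those below ran from 15 to 23 and those above from 2 to 6. The 23 and the 6 were without control 1, where 53% of all genes lay below and 15.9% above. With control 1 as the only control 21 lay below (36.9% of all genes). In that comparison 9 lay above, for which the share of all genes was not computed. The cause of these moves was not tested. Without control 1 there were 8637 calls, without control 3 there were 2, and without control 2 or any 1 doxycycline library there were 0.

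Same-numbered libraries did not deviate together: the correlations of their deviations from the group means were -0.00, -0.01 and -0.14 for numbers 1 to 3, and no doxycycline library correlated best with the control of its own number. With the replicate block 0 genes were called and ERF2 stood at -1.84 (limma adjusted p = 0.129), and the block changed no call. Depth limits ERF1 and ERF11, whose doxycycline values rest on 0 to 18.1 estimated fragments; these estimates cover counting error only.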

Other observations

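MAP kinases that act on ERF104, ERF6 and the ethylene synthesis enzyme ACS6 were also measured. Of 5 genes of this cascade 2 lay below every control and 0 above (25.7% and 9.59% of all genes), with a median difference of -0.89 against -0.29 for all genes. Without control 1, 4 lay below both other controls, where 53% of all genes did. MPK3 (AT3G45640) stood at 21.9, 21.7 and 26.3 FPKM with doxycycline, against 58.8, 55.3 and 48.6 FPKM in controls, with controls close together (log2 difference -1.19, SE 0.173, limma adjusted p = 0.121). MKK9 (AT1G73500), for an upstream kinase, stood at 7.77 ± 1.40 against 20.0 ± 5.91 FPKM (SD, n = 3 each; limma adjusted p = 0.126). MPK6 overlapped, at 34.2, 32.6 and 40.9 FPKM against 47.7, 38.7 and 48.6 FPKM in controls.

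ERF6 is known to act with a network of stress factors that restrain leaf growth, and 7 of 11 tested genes of that network lay below every control, with 0 above (25.7% and 9.59% of all genes). The median difference was -1.18, against -0.29 for all genes. The number below was 5 after median-of-ratios scaling and 6 after quantile normalization, where 17.1% and 16.7% of all genes lay below. Without control 1 it was 9, where 53% of all genes lay below. WRKY33 (AT2G38470), a factor of defence against necrotrophic fungi, stood at 6.66, 6.05 and 7.16 FPKM with doxycycline and 29.7, 19.1 and 32.3 FPKM in controls (log2 difference -1.85, SE 0.239, limma adjusted p = 0.121). MYB51 (AT1G18570), a regulator of indole glucosinolates, stood at 3.34, 4.17 and 4.85 FPKM against 12.7, 8.98 and 11.3 FPKM in controls. WRKY15 (AT2G23320) stood at 28.3 ± 3.05 against 47.9 ± 8.27 FPKM (SD, n = 3 each). ERF6 itself overlapped the controls.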
